A study of Drosophila melanogaster with 11 samples.

Results

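The mitotic cyclins CycA, CycB and CycB3, the S-phase cyclin CycE, the kinase gene Cdk1, the Cdc25 phosphatase genes stg and twe, the APC/C activator genes fzy and fzr, and the Cdk inhibitor gene dap were followed in wild-type Drosophila embryos. These 10 genes were taken by FlyBase symbol from the 17753 genes of the expression tables, and all 10 passed the filter on low counts in every comparison. PolyA mRNA of whole Oregon-R embryos, kept at 25 °C with no further treatment, was sequenced in 11 libraries. There were 3 libraries at 2–4 h after egg deposition, 2 at 14–14.5 h, 4 at 14–17 h and 2 at 17–17.5 h, and the replicates came from independent collections on different days. Each library is a pool of whole embryos, so that dividing and non-dividing cells are averaged. In such bulk RNA, fewer cells that express a gene and less RNA per cell cannot be told apart.

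A cell enters mitosis when Cdk1, bound to an A- or B-type cyclin, is freed of an inhibitory phosphate by a Cdc25 phosphatase, and it leaves mitosis when the anaphase-promoting complex (APC/C, a ubiquitin ligase) marks the cyclins for destruction. In the early fly embryo the nuclei divide fast on RNA and protein that the mother laid down, whereas later divisions are timed by transcription of stg. Most cells then stop dividing during mid-embryogenesis, with CycE turned down and dap and fzr active. Neuroblasts of the central nervous system are among the cells that still divide later in embryogenesis.

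Total estimated counts lay between 14472809 (replicate 2 at 2–4 h) and 38904916 per library, and 3 counts, taken as the smallest detectable amount, were worth at most 0.207 CPM (counts scaled to a common library size). The window labels were checked with marker genes. All 9 early patterning and cellularization genes were called lower at 14–17 h than at 2–4 h, beside 42.4% of all genes. Of 8 genes of differentiated muscle, neurons, glia and cuticle, 7 were called higher, beside 48.2% of all genes. The exception was the neuronal gene elav, with a mean of 179.9 CPM at 2–4 h and 176.5 CPM at 14–17 h. The early zygotic genes nullo and bnk had a count of 0 in all 8 libraries from 14 h on. Levels are given in TPM as deposited, which divides by the span of a gene with its introns, and fold changes come from estimated counts.

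The RNA of all 10 regulators was lower at 14–17 h than at 2–4 h, and no library of 14–17 h reached the lowest 2–4 h library for any of them. Cdk1 was lowest relative to its early level, with a mean of 4.62% of the 2–4 h TPM, followed by CycE with 4.96%, fzy with 6.82%, CycA with 8.78% and CycB3 with 12.4%. The genes that retained most were twe with 42.0%, fzr with 34.4% and dap with 29.4%, while stg and CycB were at 19.8% and 23.9%. By edgeR's two-sided quasi-likelihood test, with p-values adjusted by Benjamini-Hochberg over all genes and called under 0.05, 10 of 10 regulators were lower and 0 were higher. Of all 11623 genes tested, 42.4% were lower and 48.2% were higher, and the median log2 fold change was 0.19. Summed over the 10 genes, CPM lay between 680 and 916 in the 14–17 h libraries and between 5191 and 6220 in the 2–4 h libraries.

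**Figure D1:**
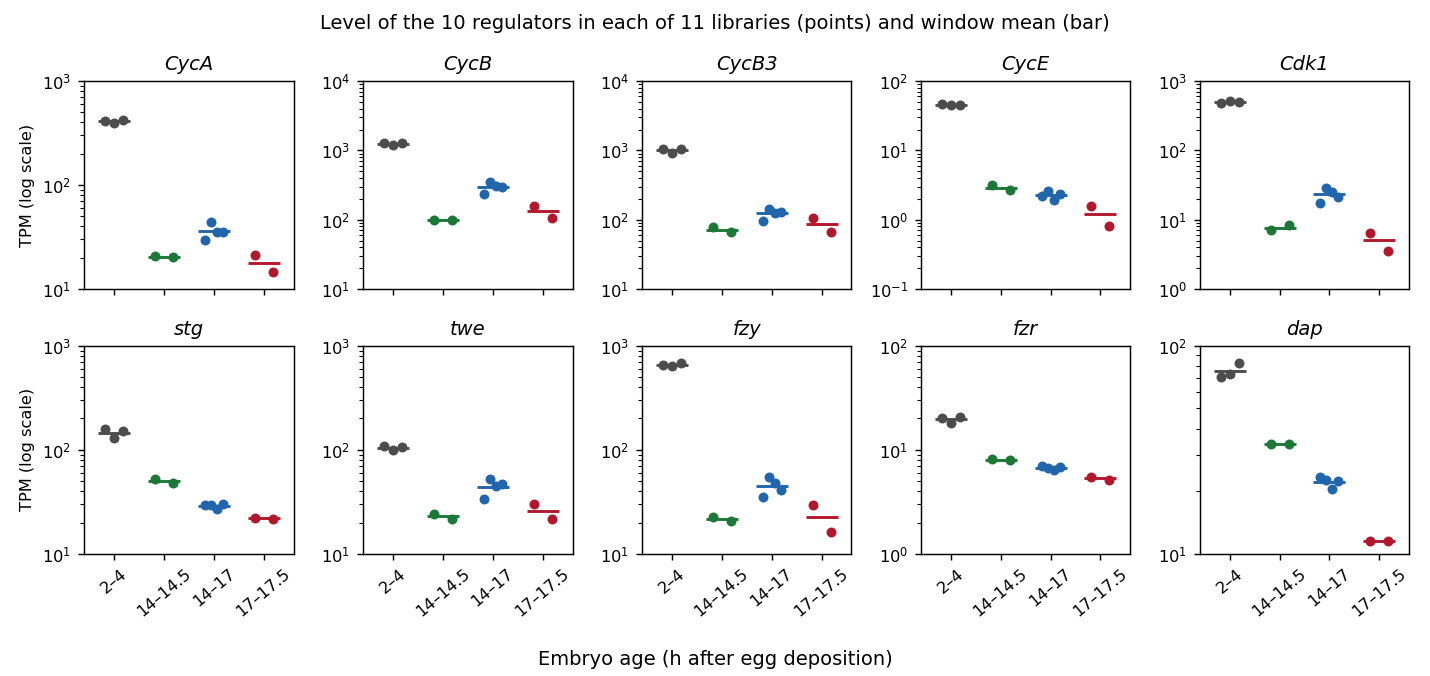
TPM of each regulator (y axis, log scale, own range per gene) in the 11 libraries, as points in label order, by age after egg deposition in hours (x axis), with bars at the window means. Every late library sits below every 2–4 h library, and for CycA, CycB, CycB3, Cdk1, twe and fzy the 14–17 h mean lies above those of both narrow windows, as for CycB with 298 TPM against 98.7 TPM at 14–14.5 h and 132 TPM at 17–17.5 h.

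CycB (FBgn0000405, chromosome 2R from 22803521 to 22806948 of dm6), a B-type cyclin and partner of Cdk1, had the highest mean level of the 10 genes in every window. Its TPM was 1257, 1188 and 1296 at 2–4 h, 98.8 and 98.6 at 14–14.5 h, 232, 354, 305 and 300 at 14–17 h, then 160 and 104 at 17–17.5 h. The 4 windows did not overlap, and the level was high early, lowest at 14–14.5 h and intermediate in the other late libraries. Over 2–4 h, the log2 fold change at 14–17 h was −2.07 (SE 0.14, adjusted p = 2.1e-07, edgeR).

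CycB3 (FBgn0015625, chromosome 3R from 24867934 to 24870816), the second B-type cyclin, is annotated with 2 transcripts of 1 exon each. Its TPM was 1044, 907 and 1044 at 2–4 h, 77.5 and 66.0 at 14–14.5 h, 95.3, 145, 124 and 131 at 14–17 h, then 106 and 67.5 at 17–17.5 h. Replicate 1 of 14–17 h lay between the libraries of 17–17.5 h, so these windows overlapped. For 14–17 h over 2–4 h, the log2 fold change was −3.02 (SE 0.15, adjusted p = 2.38e-08, edgeR).

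CycA (FBgn0000404, chromosome 3L from 11826719 to 11833578), the A-type cyclin that is required for mitosis in the embryo, has exons over 42.6% of its span, with CG7264, listed at 0 TPM in both windows, nested within it on the opposite strand. Its TPM was 414, 393 and 425 at 2–4 h, 20.8 and 20.1 at 14–14.5 h, 29.8, 44.0, 35.4 and 35.0 at 14–17 h, then 21.2 and 14.5 at 17–17.5 h. The 14–17 h libraries stood apart from both narrow windows, which overlapped each other. For CycA the log2 fold change of 14–17 h over 2–4 h was −3.52 (SE 0.13, adjusted p = 3.27e-09, edgeR).

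Cdk1 (FBgn0004106, chromosome 2L from 10384739 to 10386262), the mitotic kinase, had a TPM of 489, 523 and 499 at 2–4 h, 7.17 and 8.26 at 14–14.5 h, 17.6, 28.8, 25.2 and 21.5 at 14–17 h, then 6.47 and 3.59 at 17–17.5 h. These levels rest on 4458 to 9063 estimated counts at 2–4 h, but on only 66 to 148 in the narrow late windows. Its 14–17 h libraries were all above those of both narrow windows. The log2 fold change was −4.44 for 14–17 h over 2–4 h (SE 0.15, adjusted p = 1.68e-09) and −6.04 for 14–14.5 h over 2–4 h (SE 0.14, adjusted p = 7.26e-09, both edgeR).

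CycE (FBgn0010382, chromosome 2L from 15727581 to 15748150), the cyclin that drives entry into S phase with Cdk2, is spread over the longest span, of which exons cover 24.5%. Its TPM was 46.5, 45.6 and 45.4 at 2–4 h, 3.14 and 2.69 at 14–14.5 h, 2.22, 2.59, 1.94 and 2.34 at 14–17 h, then 1.59 and 0.820 at 17–17.5 h. The level was lower in each later window, without overlap. Its log2 fold change of 14–17 h over 2–4 h was −4.34 (SE 0.10, adjusted p = 4.54e-10, edgeR). An antisense RNA gene, asRNA:CR44866, at about 1 TPM, overlaps 150 bp of its exons, and the reads of such partners cannot be told apart where strand is not recorded.

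The Cdc25 genes stg and twe followed different courses. The phosphatase String, encoded by stg (FBgn0003525, chromosome 3R from 29251826 to 29255800), times the zygotic divisions. Its TPM was 158, 131 and 152 at 2–4 h, 52.7 and 47.9 at 14–14.5 h, 29.2, 29.2, 27.2 and 30.4 at 14–17 h, then 22.2 and 21.7 at 17–17.5 h. In TPM the windows did not overlap, and the level was lower in each later one. For stg the log2 fold change of 14–17 h over 2–4 h was −2.35 (SE 0.11, adjusted p = 1.46e-08, edgeR).

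Twine, encoded by twe (FBgn0002673, chromosome 2L from 16259414 to 16261877), is the Cdc25 of meiosis and is supplied to the egg as maternal RNA. Its TPM was 108, 99.8 and 107 at 2–4 h, 24.2 and 21.8 at 14–14.5 h, 33.4, 52.0, 45.0 and 46.4 at 14–17 h, then 30.1 and 21.4 at 17–17.5 h. The 14–17 h libraries were again the highest of the late ones, while the narrow windows overlapped. The log2 fold change of 14–17 h over 2–4 h was −1.26 (SE 0.14, adjusted p = 1.03e-05, edgeR), the smallest decrease of the 10. The gene EndoGI, at 31.4 TPM at 14–17 h and 10.1 TPM at 2–4 h, overlaps twe by 98 bp on the opposite strand.

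The APC/C activators also differed. Fizzy, the Cdc20 protein encoded by fzy (FBgn0001086, chromosome 2L from 16310956 to 16313097), acts in mitosis. Its TPM was 653, 636 and 679 at 2–4 h, 22.6 and 20.7 at 14–14.5 h, 34.8, 55.3, 47.7 and 41.2 at 14–17 h, then 29.2 and 16.3 at 17–17.5 h. The 14–17 h libraries were the highest late ones, and the narrow windows overlapped. The log2 fold change of 14–17 h over 2–4 h was −3.88 (SE 0.15, adjusted p = 3.64e-09, edgeR). The gene cact overlaps fzy by 62 bp on the opposite strand.

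Fizzy-related, the Cdh1 protein encoded by fzr (FBgn0262699, chromosome X from 4667290 to 4679537), keeps mitotic cyclins low in cells that have stopped dividing. Its TPM was 20.2, 18.03 and 20.7 at 2–4 h, 8.10 and 7.91 at 14–14.5 h, 7.05, 6.71, 6.43 and 6.84 at 14–17 h, then 5.52 and 5.17 at 17–17.5 h. In TPM the windows did not overlap, and the late levels lay within a narrow range. Although the protein acts in cells that leave the cycle, its RNA was lower at 14–17 h than at 2–4 h (log2 fold change −1.55, SE 0.10, adjusted p = 1.38e-07, edgeR).

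Dacapo, the CIP/KIP-type inhibitor of CycE–Cdk2 encoded by dap (FBgn0010316, chromosome 2R from 9712321 to 9716256), is needed for a timely stop after the last division. Its TPM was 71.1, 72.8 and 82.6 at 2–4 h, 33.7 and 33.6 at 14–14.5 h, 23.3, 22.7, 20.5 and 22.3 at 14–17 h, and 11.5 in both libraries of 17–17.5 h. The level was lower in each later window, without overlap. The log2 fold change of 14–17 h over 2–4 h was −1.77 (SE 0.09, adjusted p = 2.32e-08, edgeR).

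Between genes, levels were also compared per length of exon, and the order changed with the window. These values divide the deposited counts by the full exonic length. Unlike deposited TPM they use no effective length, which lowers short genes such as Cdk1 (1082 exonic bp) against longer ones. Reads from introns, if any, stay in the counts. The order of near neighbours can depend on these choices. With TPM recomputed over exonic length, the 2–4 h means were 1154 ± 38.9 for CycB, 818 ± 24.2 for CycA, 811 ± 56.2 for CycB3, 558 ± 13.7 for fzy, 539 ± 24.0 for Cdk1, 161 ± 2.45 for CycE, 158 ± 13.9 for stg, 97.4 ± 7.43 for dap, 87.4 ± 3.04 for twe and 74.1 ± 4.65 for fzr (SD, n = 3). The ranges of CycA and CycB3, of fzy and Cdk1, and of CycE and stg overlapped, so these neighbours did not separate beyond their spread. At 14–14.5 h, stg (52.9 ± 4.00) and dap (42.4 ± 0.42) stood above CycA (39.9 ± 1.21) (SD, n = 2). By this measure Cdk1 (8.07 ± 0.75) was last there, next to CycE (10.05 ± 1.16) (SD, n = 2). At 17–17.5 h the lowest were Cdk1 (5.36 ± 2.16) and CycE (4.23 ± 1.90), which overlapped (SD, n = 2). On the deposited scale, which counts introns, CycA ranked lower than by exonic length in every window, and at 2–4 h it ranked below CycB3, fzy and Cdk1 with 410.5 ± 16.3 TPM (SD, n = 3). On that scale CycE ranked below stg, twe and dap at 2–4 h, with 45.8 ± 0.59 TPM (SD, n = 3), but was last on both scales at 14–17 h and 17–17.5 h.

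At 14–14.5 h, too, 10 of 10 regulators were called lower than at 2–4 h and 0 higher, beside 43.3% of all genes called lower and 46.7% called higher (edgeR). The 2 comparisons share the 2–4 h libraries, so their fold changes are given side by side and are not independent. For 14–14.5 h and for 14–17 h over 2–4 h, the log2 fold change was −4.94 and −3.88 for fzy, −4.34 and −3.52 for CycA, −3.68 and −2.07 for CycB, −3.82 and −3.02 for CycB3, and −2.21 and −1.26 for twe. For CycE it was −3.99 and −4.34, for stg −1.56 and −2.35, for fzr −1.32 and −1.55, and for dap −1.18 and −1.77. Thus 6 genes, Cdk1 included, were further from their early level at 14–14.5 h, and CycE, stg, fzr and dap were further from it at 14–17 h.

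**Figure D2:**
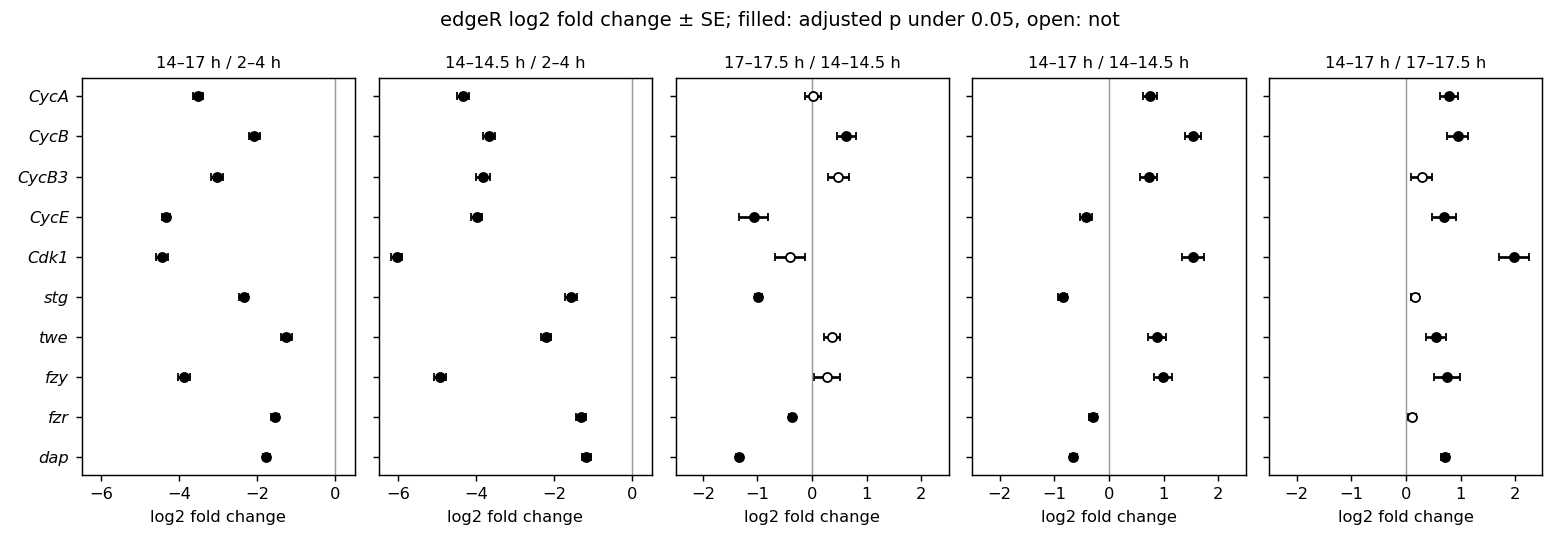
Log2 fold change of each regulator (x axis, wider in the 2 panels against 2–4 h) with its SE, in 5 edgeR comparisons named above the panels, later or broader window over the other. All points lie left of 0 against 2–4 h, and in the comparison of 17–17.5 h with 14–14.5 h CycB (0.63) lies to the right while CycE, stg, fzr and dap lie to the left. Filled points passed an adjusted p of 0.05.

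The narrow windows, 17–17.5 h and 14–14.5 h, give the course of the regulators late in embryogenesis. Of the 10 genes, CycE, stg, fzr and dap were called lower at 17–17.5 h, beside 31.5% of all genes, and CycB was called higher, beside 32% of all genes (edgeR's quasi-likelihood test, 11267 genes). The decrease was clearest for dap, with a log2 fold change of −1.34 (SE 0.06, adjusted p = 9.42e-06), and for stg, with −0.98 (SE 0.07, adjusted p = 6.49e-05, both edgeR). For fzr it was −0.37 (SE 0.06, adjusted p = 0.00182) and for CycE −1.07 (SE 0.27, adjusted p = 0.0146, both edgeR). CycB had a log2 fold change of 0.63 (SE 0.17, adjusted p = 0.021), whereas the values for CycB3 (0.48, SE 0.19, adjusted p = 0.0748) and twe (0.37, SE 0.15, adjusted p = 0.0698) missed the threshold (edgeR). The log2 fold changes of CycA (0.01, SE 0.15), fzy (0.28, SE 0.24) and Cdk1 (−0.41, SE 0.27) were within about 1.5 SE of 0.

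The calls for CycB and CycE rested on few libraries. With normalization by library size alone CycB had an adjusted p of 0.057, and without either library of 14–14.5 h both genes missed the threshold (adjusted p between 0.0737 and 0.141), in fits where the lone library is assumed to vary like the others. Without replicate 2 of 17–17.5 h, CycA, CycB, CycB3, twe and fzy were all called higher, and without replicate 1 Cdk1 was called lower (−0.82, adjusted p = 0.0148, edgeR) and CycB kept a log2 fold change of 0.36.

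The libraries of 17–17.5 h differed between themselves in a way that split the regulators. In replicate 1 against replicate 2, CPM was 1.81 times as high for CycE (95% exact interval 1.54 to 2.13), 1.68 times for Cdk1 (1.24 to 2.31), 1.67 times for fzy (1.49 to 1.88), 1.46 times for CycB3 (1.39 to 1.54), 1.43 times for CycB (1.38 to 1.49), 1.36 times for CycA (1.27 to 1.46) and 1.31 times for twe (1.19 to 1.45). For fzr (0.998), stg (0.958) and dap (0.934) the interval held 1. The intervals cover counting error only, and PCR copies are not independent molecules. Over the 8352 genes above 5 CPM in both libraries the median ratio was 0.977, and 0.922% of them exceeded 1.4, a mark set after the values were seen. Among the 14–17 h libraries, replicate 1 was lowest and replicate 2 highest in CPM for CycA, CycB, CycB3, Cdk1, twe and fzy, by a factor of 1.4 to 1.55, while the highest and lowest libraries differed by a factor of 1.08 to 1.20 for CycE, stg, fzr and dap. The split was thus not the same, since CycE had the largest ratio at 17–17.5 h (1.81) but only 1.20 here. The spread of all genes among the 14–17 h libraries was not computed.

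The 14–17 h window includes the 14–14.5 h window and ends where the 17–17.5 h window begins, and comparisons of it with each narrow window were added after the data were seen. Higher at 14–17 h than at 14–14.5 h were CycA, CycB, CycB3, Cdk1, twe and fzy, 6 of 10 beside 30.5% of all genes, and lower were CycE, stg, fzr and dap, beside 28.5% of all genes (edgeR, 11435 genes). The largest differences were in CycB (log2 fold change 1.54, SE 0.15, adjusted p = 0.000115) and Cdk1 (1.53, SE 0.20, adjusted p = 0.000413, both edgeR). Without replicate 1 of 14–14.5 h, CycE and fzr missed the threshold, and without replicate 2 of 14–14.5 h CycB3 did (adjusted p = 0.0581, edgeR). With all 11 libraries in the fit, CycE had an adjusted p of 0.0668 (edgeR).

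Set against 17–17.5 h, 7 genes were called higher at 14–17 h, namely CycA, CycB, Cdk1, CycE, twe, fzy and dap, beside 32.3% of all genes, and 0 were called lower, beside 31.7% of all genes (edgeR, 11487 genes). Every log2 fold change was above 0, by edgeR and by DESeq2, so a looser threshold on p could not call any regulator lower. Without replicate 2 of 14–17 h or replicate 2 of 17–17.5 h, 4 genes were called higher, as CycE, twe and fzy missed the threshold. Cdk1 again had the largest value (1.98, SE 0.27, adjusted p = 0.000498), and the log2 fold changes of CycB3 (0.29, SE 0.19), stg (0.17, SE 0.07) and fzr (0.11, SE 0.07) did not pass. Normalized by library size alone, where the median of all genes was 0.22 and not 0.03, stg (0.36) and fzr (0.29) were called higher as well.

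Called higher at 14–17 h than in both narrow windows were therefore CycA, CycB, Cdk1, twe and fzy, 5 of 10, beside 13.5% of the 11339 genes tested in both. The 2 comparisons share the 14–17 h libraries and are not independent. Without replicate 2 or replicate 3 of 14–17 h, or without replicate 2 of 17–17.5 h, 3 genes remained by this rule, CycA, CycB and Cdk1, since twe and fzy missed the threshold against 17–17.5 h. By their means, 6 genes lay above both narrow windows, CycB3 being the sixth, and this count was 6 in deposited TPM, in TPM over exonic length, in TMM-scaled CPM and without any 1 library.

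**Figure D3:**
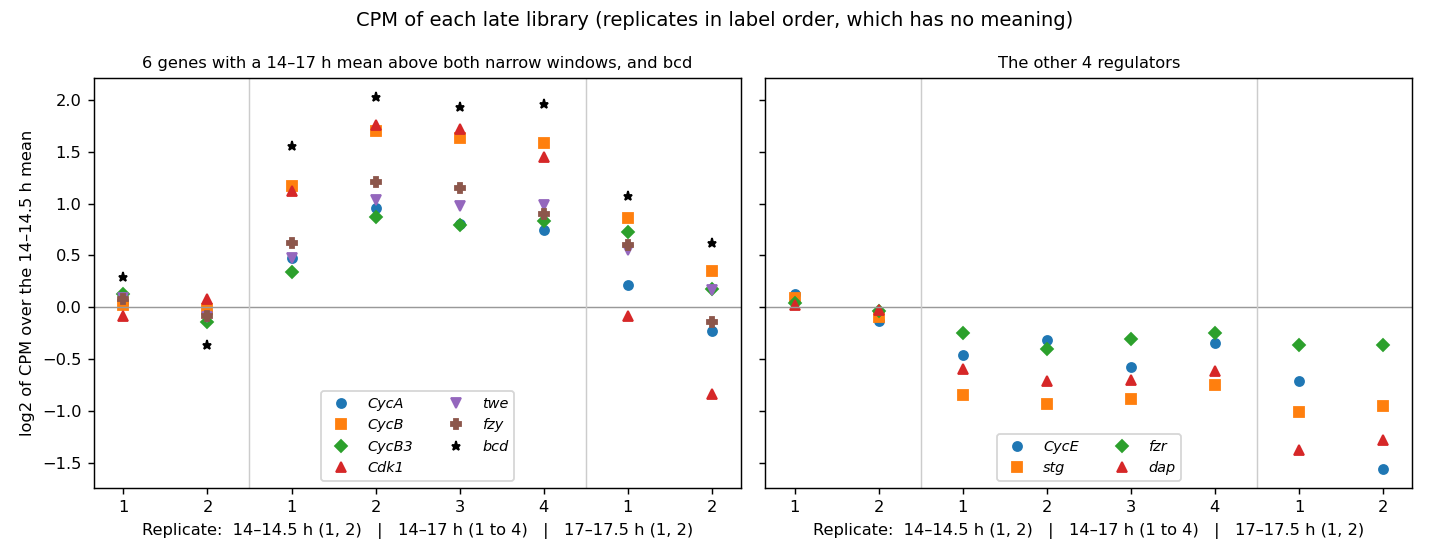
Log2 of CPM over the mean of the 14–14.5 h libraries (y axis) in the 8 late libraries (x axis), left for the 6 regulators whose 14–17 h mean lies above both narrow windows, with bcd (black stars) added, right for CycE, stg, fzr and dap. On the left, replicate 1 is the lowest of the 4 libraries of 14–17 h and replicate 1 of 17–17.5 h lies above replicate 2, for bcd as well.

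Because twe lay nearest to tor and Tl, and CycB to wisp, in the search for like genes described below, other RNAs known to be laid down by the mother were looked up after the values were seen. The levels of tor, Tl and wisp themselves are the pattern by which they were found. The anterior determinant bcd, transcribed in the ovary, was at 52.8, 35.1 and 48.3 CPM at 2–4 h, 9.67 and 6.14 CPM at 14–14.5 h, 23.3, 32.2, 30.3 and 30.7 CPM at 14–17 h, then 16.6 and 12.2 CPM at 17–17.5 h. The 14–17 h libraries of bcd thus lay above all those of the narrow windows and below the 2–4 h libraries. Its log2 fold change was 1.88 (SE 0.21, adjusted p = 0.000193) for 14–17 h over 14–14.5 h and 1.06 (SE 0.17, adjusted p = 0.00135) for 14–17 h over 17–17.5 h (both edgeR). For the posterior determinant osk it was 2.40 (SE 0.49, adjusted p = 0.00372) over 14–14.5 h and 1.405 (SE 0.46, adjusted p = 0.0283) over 17–17.5 h (both edgeR). The late levels of osk were low, at 0.608 and 0.581 CPM at 14–14.5 h and 1.89, 4.99, 3.74 and 1.99 CPM at 14–17 h. At 17–17.5 h it had 36 and 34 counts. Of all genes tested in both comparisons, 13.5% were called above both narrow windows. The 7 genes that control the syncytial cycles from the mother's side went different ways. Over 14–14.5 h, 2 of 7 were called higher and 2 lower at 14–17 h, beside 30.5% and 28.5% of all genes. Higher were plu (1.05) and gwl (0.58), lower were endos (−0.855) and mts (−0.636), and gnu (1.11) and png (0.02) were not called. Over 17–17.5 h, 0 were called higher and 3 lower, beside 32.3% and 31.7% of all genes. Lower were endos (−0.717), mts (−0.679) and tws (−0.462). There plu (0.23), gwl (0.16), gnu (0.27) and png (0.92) were not called (log2 fold changes, edgeR).

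The mitochondrial ribosomal RNA mt:lrRNA held 10.02% to 12.2% of TPM at 14–17 h, against 5.89% to 6.49% in the narrow windows, and 11.1% to 14.8% at 2–4 h. The summed level of the 9 early embryo markers was 1967 to 2364 CPM at 2–4 h, 91.0 to 97.2 CPM at 14–14.5 h, 82.1 to 95.5 CPM at 14–17 h and 74.5 to 80.5 CPM at 17–17.5 h. Of the 7 that could be tested, slam (1.24) and ftz (1.72) were called higher at 14–17 h than at 14–14.5 h, beside 30.5% of all genes, and eve (−1.07), run (−0.67), sna (−0.55) and kni (−0.42) were called lower, beside 28.5% (log2 fold changes, edgeR). Over 17–17.5 h, slam (0.94) and twi (0.93) were called higher, and eve (−0.64) and kni (−0.50) lower. The cellularization gene slam was thus alone among them in being called above both narrow windows, while nullo and bnk were at 0 in all late libraries. The part of retained maternal RNA in the level of the regulators at 14–17 h was not tested.

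Markers of neuroblasts, which are among the cells that still divide late, and of germ cells were also followed. The 6 neuroblast markers (ase, dpn, insc, mira, pros and wor) summed to 861 to 1040 CPM at 2–4 h, 253 to 269 CPM at 14–14.5 h, 213 to 257 CPM at 14–17 h and 124 to 125 CPM at 17–17.5 h. Most of this sum was mira at 2–4 h (mean 598 CPM), and insc (96.0 CPM) and pros (96.2 CPM) at 14–17 h. At 14–17 h over 2–4 h, insc was called higher (0.97) and the other 5 lower, beside 48.2% and 42.4% of all genes (edgeR). The mean of insc was 106 CPM at 14–14.5 h and 14.3 CPM at 17–17.5 h. At 14–17 h over 14–14.5 h their log2 fold changes lay between −0.84 (ase, called lower) and 0.27 (mira, adjusted p = 0.2), and pros (−0.29) was also called lower (edgeR). Against 17–17.5 h, 4 of 6 were called higher at 14–17 h, beside 32.3% of all genes, and at 17–17.5 h 6 of 6 were called lower than at 14–14.5 h, beside 31.5% of all genes (edgeR). The 5 germ cell markers tested summed to 214 to 247 CPM at 2–4 h and 345 to 353 CPM at 14–14.5 h. Their sum was 251 to 283 CPM at 14–17 h and 134 to 141 CPM at 17–17.5 h. Most of the sum at 14–17 h and at 14–14.5 h came from gcl, with 170.3 to 201 CPM and 235 to 242 CPM. The members of this list went different ways at 14–17 h. Over 14–14.5 h, aub was called higher (0.89, adjusted p = 0.00324, edgeR), and gcl (−0.39) and ovo (−0.72) lower. There vas (−0.01) and pgc (0.93, adjusted p = 0.227, edgeR) were not called. Over 17–17.5 h, aub (0.90, adjusted p = 0.00481) and gcl (1.74, adjusted p = 8.67e-06) were called higher (both edgeR). Not called were vas (−0.07), pgc (−0.20) and ovo (−0.01), all as log2 fold changes. The part of either cell type in the regulators' levels was not tested.

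Ratios of 2 regulators within a library do not depend on how libraries are scaled. The ratio of fzr to fzy, APC/C activators of different phases, was higher in late than in early embryos. On estimated counts, its log2 mean was −0.07 ± 0.33 at 14–17 h (SD, n = 4) and −2.43 ± 0.07 at 2–4 h (SD, n = 3). Per fzy count there were 0.176 to 0.192 fzr counts at 2–4 h, 2.22 and 2.37 at 14–14.5 h, 0.753 to 1.26 at 14–17 h, then 1.17 and 1.96 at 17–17.5 h. Counts are not per length, so these ratios compare windows and not the levels of the 2 genes. The ratio of dap to CycE was 1.93, 1.61, 1.94 and 1.75 at 14–17 h, against 0.281, 0.293 and 0.334 at 2–4 h. For both ratios, the lowest 14–17 h library lay above the highest 2–4 h library.

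The other 3 ratios were lower at 14–17 h than at 2–4 h, without overlap. The difference in log2 ratio was −1.07 for stg to twe, −0.95 for CycB3 to CycB and −1.44 for CycA to CycB. The ratio of stg to twe was 3.64 and 3.65 at 14–14.5 h, above 2.18 to 2.43 at 2–4 h, and was between 0.936 and 1.46 at 14–17 h. The ratio of CycA to CycB was 0.676 to 0.682 at 2–4 h, 0.421 to 0.434 at 14–14.5 h, 0.240 to 0.264 at 14–17 h and 0.273 to 0.287 at 17–17.5 h. An exact permutation test of 4 against 3 libraries cannot give a two-sided p below 0.0571, so no test was made, and the differences were at least 4 times the spread within windows, which was 0.22 for stg to twe and 0.05 for both CycB3 to CycB and CycA to CycB (pooled SD of log2 ratios).

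**Figure D4:**
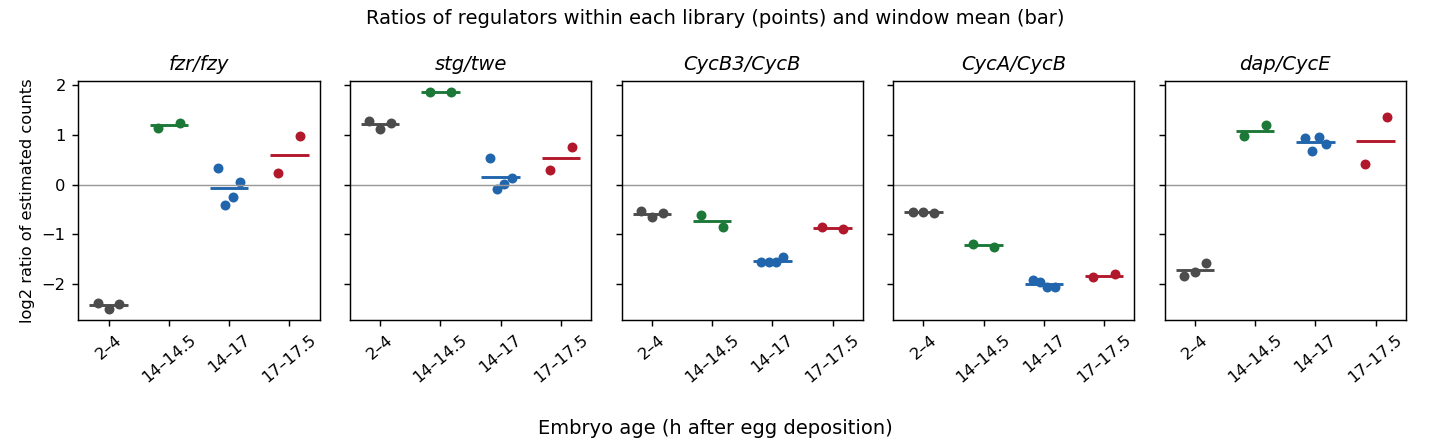
Log2 ratio of estimated counts (y axis) of 5 pairs of regulators in each library (points, with bars at window means) by age in hours (x axis). For fzr to fzy and dap to CycE every late library lies above the 2–4 h libraries, and for CycA to CycB every late library lies below them.

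Genes whose course over the 11 libraries was most like each regulator were sought among 12082 genes, by the root mean square difference of centred log2(CPM + 1). For twe they were tor (0.091) and Tl (0.113), receptors of terminal and dorsoventral patterning known as maternal RNAs, and for CycB they were wisp (0.145), a cytoplasmic poly(A) polymerase of the egg, and Trf4-2 (0.161). CycB3 was nearest to Nasp (0.129), a histone chaperone, and Top2 (0.131), a DNA topoisomerase, fzy to Mcm7 (0.155), a subunit of the replicative helicase, and pav (0.159), a kinesin of cytokinesis, and CycE to PolA1 (0.166), the DNA polymerase alpha subunit, and Rrp1 (0.198). CycA lay nearest to Apc2 (0.094) and Nin (0.121), Cdk1 to rpk (0.274) and mud (0.283), stg to rib (0.129) and Lac (0.130), fzr to CycY (0.052) and Ythdf (0.074), and dap to CG6398 (0.126) and wg (0.130). Among the regulators themselves the nearest pairs were CycA and fzy (0.204), stg and dap (0.267), and fzr and dap (0.318), and the farthest were Cdk1 and fzr (1.78).

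The other cell cycle genes were followed in 9 lists with 71 different genes. At 14–17 h against 2–4 h, 68 of 71 were called lower, beside 42.4% of all genes, and 2 were called higher, beside 48.2% (edgeR). Their median log2 fold change was −2.44, and that of all genes 0.19. Exceptions were CycG, an atypical cyclin (0.81, SE 0.11, adjusted p = 4.76e-05), and tws, a regulatory subunit of the phosphatase PP2A (0.48, SE 0.10, adjusted p = 0.00076), both called higher, while endos (−0.12, adjusted p = 0.347) was not called (edgeR).

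Genes that act beside Cdk1 in mitosis were called lower in full, beside 42.4% of all genes. All 6 mitotic kinases and chromosomal passengers were called lower (median −3.59), with the largest changes in aurB (−5.38) and Det (−4.21), and so were 8 of 8 spindle checkpoint genes (median −2.75), with mad2 (−4.19) and Mps1 (−3.68) ahead. Of the APC/C list of subunits, E2 enzyme and inhibitor 12 of 12 were called lower (median −2.57), as Cdc23 (−3.87) and APC7 (−3.85). The value of APC7 rests on 3 to 19 counts at 14–17 h. Of condensin, cohesin and separase genes 11 of 11 were called lower (median −2.24), as Sse, the separase (−4.51), and Cap-D2 (−3.63).

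Regulators of Cdk activity showed a wider range, and their counts too stand beside 42.4% of all genes called lower. The brakes on Cdk1 and Cdc25 were called lower in 8 of 8 (median −1.62), with the checkpoint kinase gene mei-41 at −3.92. In this list Z600, which halts early divisions, had 7 to 9 counts in each 14–17 h library and 2204 to 4464 in each 2–4 h library. The G1/S kinase, E2F and RB genes were called lower in 8 of 8 (median −1.79), led by Rbf2 (−5.19) and Cdk2 (−4.06). Among Cdk activating and Cks genes 5 of 5 were called lower (median −2.64), led by Cks30A (−4.19) and Cdk7 (−2.84), and among other cyclins 6 of 7 (median −1.55), led by CycH (−2.64) and CycC (−2.61). Of 7 genes that control the syncytial cycles from the mother's side, 5 were called lower (median −1.84), led by gnu (−4.26) and png (−3.18). These 2 values rest on few counts at 14–17 h, 12 to 18 for gnu and 2 to 19 for png.

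**Figure D5:**
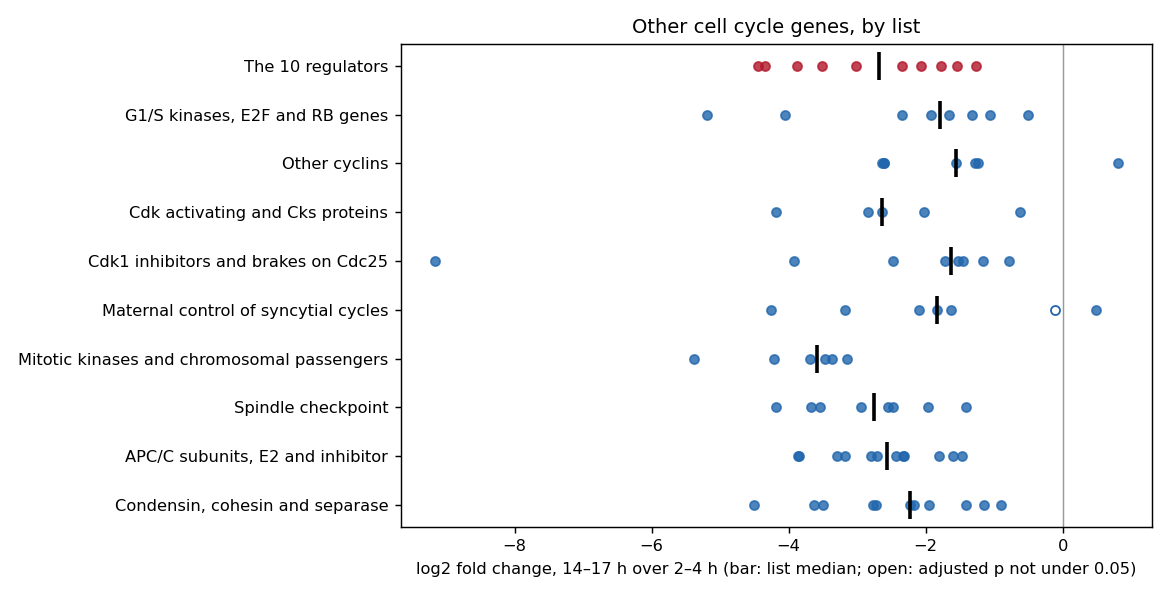
Log2 fold change of 14–17 h over 2–4 h (x axis) for the 10 regulators (red) and for each list of other cell cycle genes (blue), with a bar at the list median. CycG and tws lie right of 0, and the point at the far left is Z600, whose fitted value rests on 7 to 9 counts in each 14–17 h library.

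Among the late windows the lists are set beside the shares of all genes. At 14–17 h over 14–14.5 h, where 30.5% of all genes were called higher and 28.5% lower, 5 of 6 mitotic kinases and passengers were called higher (median 0.95), 1 of 8 G1/S genes was called higher and 4 lower (median −0.32), and 3 of 12 APC/C genes were called higher and 2 lower (median 0.12), no more often than all genes (edgeR). Calls higher and lower were 5 and 4 of 11 condensin, cohesin and separase genes, and 3 and 1 of 8 spindle checkpoint genes. They were 2 and 2 of 7 genes of syncytial control, and 1 and 1 of the 7 brakes tested. For other cyclins they were 1 and 5 of 7, and for Cdk activating and Cks genes 0 and 2 of 5. At 14–17 h over 17–17.5 h, where 32.3% of all genes were called higher and 31.7% lower, 5 of 6 mitotic kinases and passengers (median 0.90) and 7 of 12 APC/C genes (median 0.56) were called higher, while the G1/S list, with 3 of 8 called higher and 3 lower (median −0.04), was near the shares of all genes (edgeR). Here the calls higher and lower were 7 and 1 of 11 condensin, cohesin and separase genes, and 5 and 1 of 8 spindle checkpoint genes. They were 5 and 1 of the 7 brakes tested, and 0 and 3 of 7 genes of syncytial control. For other cyclins they were 1 and 2 of 7, and for Cdk activating and Cks genes 1 and 1 of 5. The median of all genes was 0.02 over 14–14.5 h and 0.03 over 17–17.5 h, and differences between lists were not tested. Of the 70 genes of the 9 lists tested in both, 17 were called higher at 14–17 h than in both narrow windows, beside 13.5% of all genes, among them polo, aurA, Incenp, borr and Det.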

How the data were processed

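Kallisto was run by the authors on reads trimmed to 50 bases against dm6 with FlyBase r6.21 (CASAVA 1.8.2 is named in the submitters' processing notes), and its version is not given in the sources used here. For each gene the authors deposited its estimated count in a library and a TPM value, which is that count per effective length scaled to a fixed total. Of 17625 annotated genes, 17502 had a length equal to their span with introns (dm6 coordinates, Ensembl release 115). The kit is not stated to record strand. Methods name 2 Illumina instruments without saying which library ran on which, so instrument and window cannot be told apart.

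After rounding to whole numbers, the counts entered edgeR 4.0.16 (R 4.3.3) with filterByExpr, TMM factors and the quasi-likelihood F-test, each comparison on its own libraries, and p-values were adjusted by Benjamini-Hochberg over all genes tested. SEs were obtained from the fold change and F, as |log2 fold change|/√F. Exonic TPM used the full length of the union of annotated exons, without an effective length. DESeq2 1.42.0 served as an alternative, and the fits were tested on simulated data. Other alternatives were RLE factors, library size only, no filter, all 11 libraries, the replicate number as a block and leaving out each library.

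Besides the 10 regulators, the genes named are, per list, those called with the largest changes in each direction (at most 2) between 14–17 h and 2–4 h that differed the same way in every pair of libraries, and the 2 nearest genes in course. Markers, genes called above both narrow windows and the maternal RNAs are named in addition, the last after their values were seen. The regulators and lists were chosen with earlier results of these data known. Tables were processed with Python 3.11.15, pandas 2.3.3, scipy 1.17.1 and matplotlib 3.10.9.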

Additional observations from a re-analysis of the deposited data

Results flagged for a closer look

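In the 14–17 h window, with 4 libraries, the log2 ratio of CycB3 to CycB was −1.55, −1.55, −1.57 and −1.47, so that replicate 4 stood away from the other 3 by 0.843 of the whole range, past Dixon's critical value for 4 samples. The range is narrow, and the window lay below all 2–4 h libraries with and without that library. It was the only one of 25 sets of 4 values examined that was marked, and chance marks about 1 in 20.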

How the results depend on the processing

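All 10 regulators were called lower at 14–17 h, and at 14–14.5 h, than at 2–4 h under each alternative tried. For 17–17.5 h against 14–14.5 h the number called higher, 1 with TMM factors, was 2 with DESeq2, 3 with RLE factors, 0 with library size only and 3 with the replicate block, and between 0 and 5 when 1 library was left out, while the number called lower stayed within 1.5 times of 4. Without 1 library, 2 to 4 regulators were called lower at 14–17 h than at 14–14.5 h, and 4 to 7 higher than at 17–17.5 h. Signs changed for values near 0: CycA, at 0.01 in 17–17.5 h over 14–14.5 h, was −0.13 with library size only, −0.0063 with the replicate block and between −0.21 and 0.24 when 1 library was left out, fzy (0.28) lay between −0.12 and 0.62, and the change in the log2 ratio of dap to CycE (−0.20) was between −0.68 and 0.27. With library size only the median of all genes was −0.18 and not −0.04 in this comparison, with 2975 genes higher and 4409 lower in place of 3607 and 3554, and 4829 and 2710 in place of 3715 and 3640 for 14–17 h against 17–17.5 h. The causes were not tested. Replicate numbers did not pair the libraries: the correlation of deviations between same-numbered libraries was between −0.05 and 0.09 for 14–17 h against 2–4 h. For 14–17 h against 17–17.5 h it was 0.0014 for replicate 1 and −0.26 for replicate 2. Replicate 2 of 14–17 h had 0.26 with replicate 1 of 17–17.5 h. This is the same value with its sign turned, because 2 libraries deviate from their mean by equal and opposite amounts. With the replicate number as a block, fzy and twe missed the threshold for 14–17 h against 17–17.5 h, and CycB3 (0.45) and twe (0.36) passed it for 17–17.5 h against 14–14.5 h. Among the 10 regulators, Cdk1, with 66 to 148 counts per library in the narrow windows, is where depth limits the values most.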
